A study of Mus musculus with 56 samples.

Results

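Transcript levels of 9 autophagy genes were followed around the clock in mouse heart: Ulk1, Wipi1, Map1lc3a, Map1lc3b, Gabarapl1, Sqstm1, Bnip3, Bnip3l and Tfeb. They were chosen by name, as genes of the pathway with known roles, but with earlier results of these data known. All 9 were found among the 22864 genes listed for the heart. All 9 passed the filter of a mean of at least 1 TPM (a level per base of gene length, with 1 total for every library), which left 13891 genes in the tests. The hearts came from adult female mice of the inbred strain C57BL/6J, aged 9 weeks, with 12 h of light and 12 h of darkness a day, and polyA RNA was sequenced. After 7 days of food at all hours, food was given for 7 days in one phase of the day: in the light under daytime-restricted feeding (DRF), and in the dark, when mice usually eat, under nighttime-restricted feeding (NRF). Zeitgeber time (ZT) counts the hours from lights on, and ZT0, ZT4, ZT8, ZT12, ZT16, ZT20 and ZT24 were sampled, with 4 libraries per regimen and time and 56 in all. The fast began at ZT0 under NRF and at ZT12 under DRF. The labels do not say whether the libraries of a group came from separate animals, so p-values measure the spread between these libraries.

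Autophagy encloses parts of the cytoplasm in a double membrane, the autophagosome, and delivers them to lysosomes for breakdown. In heart muscle it is known to rise in fasting and to clear damaged mitochondria. ULK1 is the kinase that starts the process, and WIPI1 binds the phosphoinositide of the growing membrane. The products of Map1lc3a, Map1lc3b and Gabarapl1 are ATG8-family proteins, which are joined to lipid on that membrane. Cargo receptors link cargo to them: the Sqstm1 product, p62, carries ubiquitinated protein, while BNIP3 and BNIP3L sit on the outer membrane of mitochondria. TFEB is a transcription factor of lysosomal and autophagy genes. A transcript level is not a measure of how much autophagy takes place, since these proteins are controlled by phosphorylation, lipidation and breakdown.

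The genes lie apart in the genome (build GRCm38, GENCODE M21 annotation). Ulk1 is at chr5:110784488-110810097 on the minus strand, Wipi1 at chr11:109573331-109611967 (minus) and Sqstm1 at chr11:50199366-50210827 (minus). Map1lc3a is at chr2:155276297-155278073 (plus), Map1lc3b at chr8:121590361-121598760 (plus) and Gabarapl1 at chr6:129533160-129542346 (plus). Bnip3 is at chr7:138890836-138909519 (minus), Bnip3l at chr14:66985239-67008877 (minus) and Tfeb at chr17:47737030-47792419 (plus). Levels are sums over all exons of a gene, UTRs included. The span of Map1lc3b from start to end overlaps that of Zcchc14 on the opposite strand, which had a mean of 18.03 TPM. It also overlaps Gm20388, a protein-coding gene on the same strand for which no level was available. Overlap was taken from whole genes and not from exons, and whether strand was used in counting is not given in the sources used here. Reads of Map1lc3b and these genes may therefore be mixed. Sqstm1 overlaps Mrnip, also on the opposite strand, at a mean of 1.29 TPM.

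Promoters of 7 of the 9 genes were among the RefSeq promoters of build GRCm38.p6. Their 250 bases before the start were searched on both strands for 5 motifs. These were CACGTG (the E-box, which clock activators can bind), TCACGTGA (the core of the lysosomal gene element that TFEB binds), GTAAACA (FOXO factors), TTATGTAA (clock output factors of the PAR bZIP family) and ACGTG (hypoxia response core, contained in CACGTG). Bnip3 was the one gene with a match, an E-box 108 bases before the start. It is shown because Bnip3 was 1 of 2 genes whose rhythm differed between regimens even after alignment to feeding. The window is chr7:138909582-138909641 on the minus strand, with the E-box in capitals.
Bnip3: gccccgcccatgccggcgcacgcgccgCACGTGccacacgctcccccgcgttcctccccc
CACGTG was found in 6.02% of all 32851 promoters and ACGTG in 16.6%, so a match is a description of these letters and not evidence of binding.

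The libraries held 29.4 to 53.1 M recovered reads, with a median of 37.4 M, and the 9 genes had between 886 and 28149 reads per library. The 5 cardiomyocyte markers (Myh6, Tnnt2, Tnni3, Actc1 and Ryr2) summed to 16898 to 28955 TPM in every library, as the tissue label says. Summed erythroid markers (4 of 4 present) ran from 1590 to 62030 TPM. Summed atrial markers (4 of 4 present) ran from 94.9 to 5476 TPM. Over 1092 genes whose rhythm differed between regimens, 46 of the 56 libraries were closest to the mean of their own group and 53 to their own group or one 4 h away. A pair of libraries went against their labels. The library labelled DRF ZT4 replicate 1 was closest to NRF ZT8 (r = 0.823, against -0.205 with its own group), and the library labelled NRF ZT8 replicate 1 was closest to DRF ZT4 (r = 0.719, against -0.140). A further library, labelled NRF ZT4 replicate 3, was about as close to DRF ZT24 (r = 0.657) as to its own group (r = 0.626). All libraries were kept as labelled, and counts and calls that changed are also given without this pair, called here the doubted libraries. In whole-heart RNA a change in the share of a cell type and a change in transcripts per cell cannot be told apart.

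Map1lc3a stood highest, at 926 TPM (median of 56 libraries, range 784 to 1154), and its range lay above that of every other member. Sqstm1 followed at 225 TPM (143 to 308), Bnip3 at 122 TPM (87.2 to 177) and Gabarapl1 at 110 TPM (84.1 to 168). Map1lc3b had 71.9 TPM (62.7 to 84.3), Bnip3l 50.9 TPM (43.5 to 84.6) and Wipi1 50.4 TPM (38.6 to 62.1). Each of these 6 overlapped its neighbour in the order. Ulk1 (32.4 TPM, 25.05 to 45.8) and Tfeb (13.2 TPM, 11.1 to 17.6) came last, and their ranges did not overlap each other. The initiating kinase and the transcription factor were thus the least abundant of the 9 transcripts per unit of length.

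**Figure D1:**
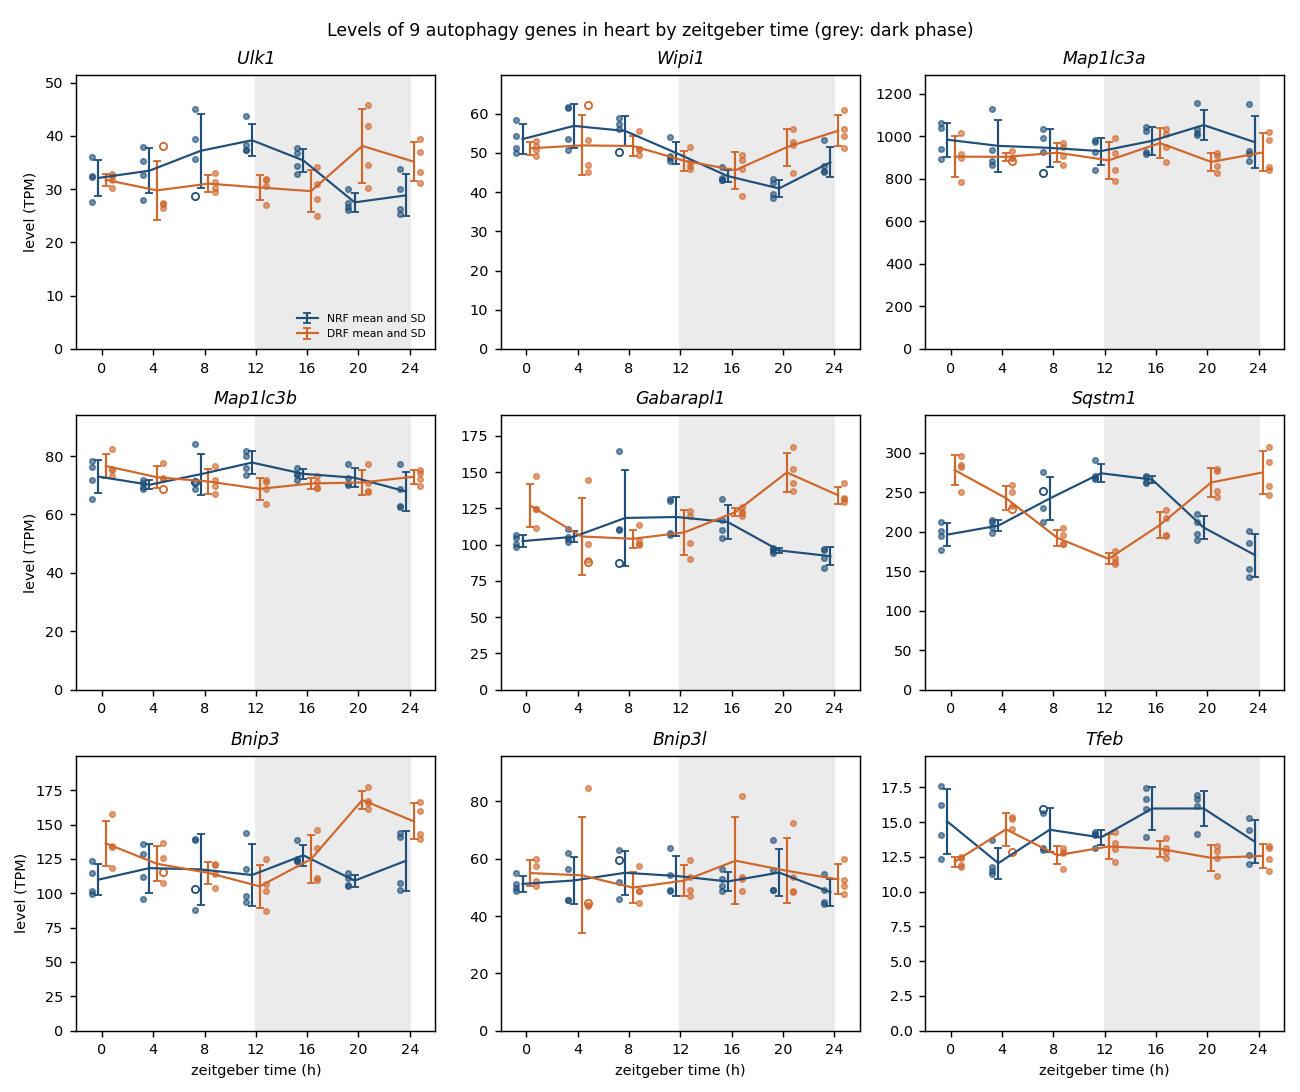
Level (TPM) of each of the 9 genes against zeitgeber time (h). Lines join the means of 4 libraries with SD bars, dots are single libraries, open dots are the doubted libraries, NRF is blue, DRF is orange and the dark phase is grey. Sqstm1 runs in opposite directions under the regimens, Gabarapl1 and Bnip3 rise at ZT20 under DRF, and Map1lc3a stays between 784 and 1154 TPM.

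The first question was whether the daily rhythm of these genes follows the clock time or the feeding time. When libraries were matched by clock time, 7 of the 9 genes had a different rhythm under DRF (all but Map1lc3a and Bnip3l), against 27.5% of all genes tested. When DRF times were moved by 12 h, so that libraries were matched by hours since food was removed, 2 of the 9 differed (Bnip3 and Wipi1), against 41.3% of all genes. For Ulk1, Map1lc3b, Gabarapl1, Sqstm1 and Tfeb the difference at matched clock time was thus called and that at matched feeding time was not, a combination found in 13.1% of all genes. The adjusted p at matched feeding time was 0.0714 for Gabarapl1, 0.123 for Sqstm1, 0.155 for Tfeb, 0.366 for Ulk1 and 0.936 for Map1lc3b, which does not show that the aligned rhythms are alike. The counts were again 7 and 2 when the doubted libraries were left out, against 30.5% and 43.4% of all genes. The first count was 4 without replicate 3, where Map1lc3b, Wipi1 and Tfeb were lost, and 4 without ZT20, where Tfeb, Bnip3 and Wipi1 were lost. The shares of all genes called in those fits are not given here. The opposite combination, called at matched feeding time alone, held 0 of the 9 genes and 26.9% of all genes. Tests were limma F tests of a 24 h harmonic on log2(TPM + 1), adjusted by Benjamini-Hochberg over all genes. Rescaling the libraries by the median of ratios raised the second count from 2 to 5, against 44.9% of all genes, with Gabarapl1 (adjusted p = 0.00451), Sqstm1 (0.00388) and Tfeb (0.00820) added. Gabarapl1 was also called at matched feeding time with the atrial sum as a covariate (0.0361) and without DRF ZT4 replicate 2 (0.0190), NRF ZT8 replicate 4 (0.0119) or ZT8 (0.0396), and Sqstm1 without NRF ZT24 replicate 4 (0.0446) or ZT24 (0.0131), so their place among these 5 genes depends on such settings.

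Within a regimen, 5 of the 9 genes were rhythmic under NRF (Gabarapl1, Sqstm1, Ulk1, Tfeb and Wipi1), against 37.2% of all genes. Under DRF 3 were rhythmic (Gabarapl1, Sqstm1 and Bnip3), against 32.3%. The counts were also 5 and 3 without the doubted libraries, where the shares were 42.8% and 30%. Gabarapl1 and Sqstm1 were rhythmic under both, as were 17.6% of all genes, and their peaks lay 9.05 h (SE 1.26) and 10.8 h (SE 0.578) apart. Both shifts fall in the phase-inverted class, 8 to 12 h. The NRF rhythm of Gabarapl1 was not called without replicate 2, replicate 3 or ZT24 (adjusted p = 0.0975, 0.0922 and 0.0701). Of the 2443 genes rhythmic under both regimens, 17.7% were in that class and 52.2% in the phase-locked class of 0 to 4 h. Whether the rhythm in one regimen differed from that in the other is given by the tests at matched times, not by these separate calls.

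**Figure D2:**
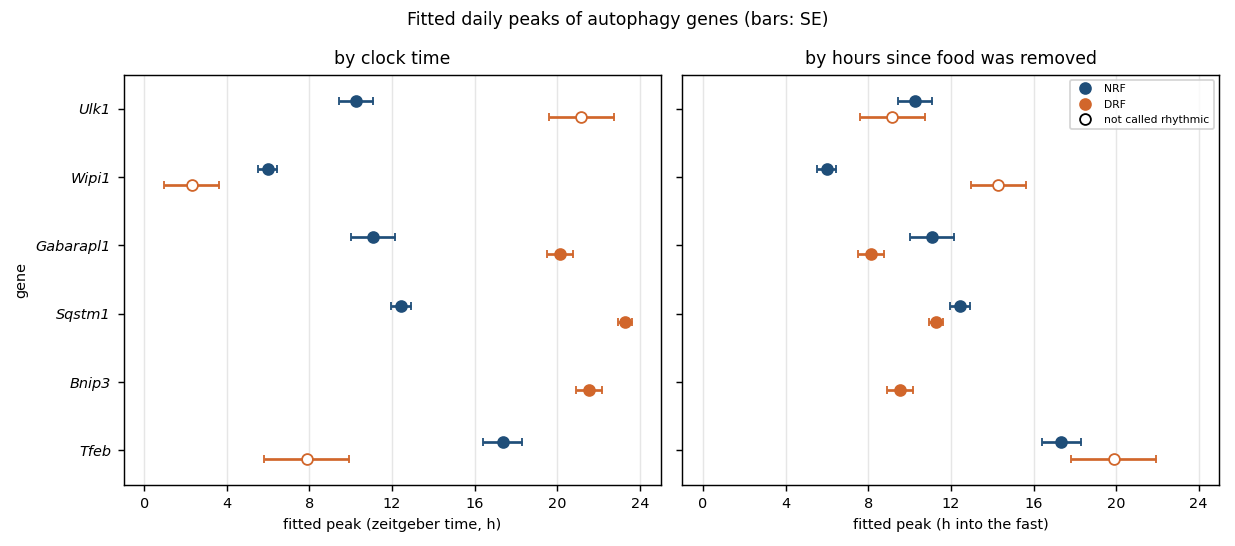
Fitted peak of the 6 genes rhythmic under at least 1 regimen, by zeitgeber time (h, left) and by hours into the fast (right), with SE bars. Filled dots were called rhythmic, open dots were not, and the NRF peak of Bnip3 is left out because its amplitude there was 0.02. Sqstm1 peaks 10.8 h apart by clock time and 1.18 h apart by hours into the fast, while Wipi1 moves apart from 3.68 h to 8.32 h.

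Ulk1, the initiating kinase, peaked at ZT10.3 (SE 0.835) under NRF. Its DRF curve had a fitted peak at ZT21.2 but was not called rhythmic (adjusted p = 0.136). At ZT20 its levels were 30.04, 26.6, 26.1 and 27.3 TPM under NRF and 41.8, 30.3, 34.6 and 45.8 TPM under DRF. All 4 DRF libraries lay above all NRF libraries, although the lowest was close to them. The difference was 0.44 on the log2 scale (SE 0.116, adjusted p = 0.00776). At ZT12 the order was the reverse, with 37.4, 38.3, 43.7 and 37.4 TPM under NRF and 31.7, 30.6, 27.1 and 31.9 TPM under DRF. No DRF library reached the NRF range. The difference there was -0.36 (SE 0.116, adjusted p = 0.0455), and leaving out replicate 1, 2 or 3 of either group alone ended the call (adjusted p from 0.0661 to 0.179). With the erythroid or the atrial sum as a covariate, Ulk1 was not called there (-0.34, adjusted p = 0.0685 and 0.0858).

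Wipi1 encodes the phosphoinositide-binding protein. Its peaks, at ZT5.98 (SE 0.464) under NRF and ZT2.30 (SE 1.34) under DRF, lay 3.68 h apart by clock time and 8.32 h apart by hours into the fast. The DRF rhythm was shallower (log2 amplitude 0.10, against 0.23 under NRF) and was not called (adjusted p = 0.0574). The curves differed both at matched clock time (adjusted p = 0.00478) and at matched feeding time (adjusted p = 6e-06), as did 14.4% of all genes. For Wipi1 the first of these calls was lost without replicate 3 (0.111) or ZT20 (0.175). At ZT20 Wipi1 stood at 42.4, 43.2, 38.6 and 39.5 TPM under NRF and at 52.0, 44.9, 52.7 and 56.1 TPM under DRF. The groups did not overlap (difference 0.32, SE 0.078, adjusted p = 0.00439), and the call was lost without replicate 3 of every group (0.0846).

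Among the ATG8-family genes, Gabarapl1 had the wider daily swing. Gabarapl1 peaked at ZT11.1 (SE 1.08) under NRF and at ZT20.1 (SE 0.644) under DRF, with log2 amplitudes of 0.16 and 0.26. At ZT20 its levels were 94.1, 95.6, 97.6 and 97.0 TPM under NRF and 152, 168, 142 and 137 TPM under DRF. The NRF libraries were nearly equal and the DRF libraries all far above them, a ratio of means of 1.56 (log2 difference 0.63, SE 0.118, adjusted p = 0.000354). At ZT24 NRF had 90.7, 97.2, 84.1 and 96.5 TPM and DRF had 130, 132, 132 and 143 TPM, again without overlap (log2 difference 0.54, SE 0.118, adjusted p = 0.00272). Gabarapl1 moved with the summed atrial markers within groups (Pearson r = 0.529, permutation p = 0.00011; Spearman rho = 0.503, permutation p = 0.00058; 56 libraries). The relation was r = 0.522 without the 2 libraries farthest from the median, 0.532 within NRF and 0.527 within DRF. It was 1 of 18 relations of the 9 genes with 2 marker lists (adjusted p = 0.00099 and 0.00522). With the atrial sum as a covariate the ZT20 difference was 0.71 (adjusted p = 1.23e-05).

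Map1lc3b varied little, from 62.7 to 84.3 TPM, and was not called rhythmic under either regimen (adjusted p = 0.0991 and 0.111). Its curves nevertheless differed at matched clock time (adjusted p = 0.0109), with fitted peaks at ZT12.9 under NRF and ZT1.05 under DRF, 11.9 h apart. At ZT12 it stood at 75.8, 81.8, 80.1 and 73.4 TPM under NRF and at 63.4, 68.6, 71.1 and 71.9 TPM under DRF. These groups did not overlap, but the difference of -0.18 (SE 0.060) did not pass the test over all genes (adjusted p = 0.0630). Map1lc3a was not rhythmic under NRF (adjusted p = 0.271) or DRF (0.937). At ZT20 it had 1015, 1005, 1154 and 1034 TPM under NRF and 828, 905, 923 and 859 TPM under DRF. NRF was higher without overlap (difference -0.26, SE 0.086, adjusted p = 0.0360). That call was lost without DRF replicate 1 or 4, or NRF replicate 1, 3 or 4 (adjusted p from 0.0504 to 0.125), without replicate 1, 2, 3 or 4 of every group (0.136, 0.0568, 0.155 and 0.0769), with no filter on low values (0.0587), with the deposited values (0.349), under median-of-ratios rescaling (-0.18, adjusted p = 0.122) and with the atrial sum as a covariate (-0.23, adjusted p = 0.0650). Within groups Map1lc3a was lower where the erythroid sum was higher (Pearson r = -0.435, permutation p = 0.0019; Spearman rho = -0.399, permutation p = 0.00547; 56 libraries; adjusted over the 18 relations 0.0114 and 0.0328). The relation was r = -0.427 without the 2 libraries farthest from the median, -0.379 within NRF and -0.508 within DRF. Among the members only Gabarapl1 (0.091) and Bnip3l (0.869) had a Pearson r above 0 with the erythroid sum. TPM has 1 total for every library, so a higher erythroid sum leaves a smaller share for other transcripts. The part of this in the relation was not tested.

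Sqstm1, the p62 receptor, had the largest difference between regimens at a single time among the 9. Its peak was at ZT12.5 (SE 0.482) under NRF and at ZT23.3 (SE 0.319) under DRF, which is 12.5 and 11.3 h after food was removed, near the change from fasting to feeding. At ZT12 the NRF libraries had 268, 271, 291 and 266 TPM and the DRF libraries 159, 167, 162 and 175 TPM. Every NRF library was far above every DRF library (log2 difference -0.72, SE 0.080, adjusted p = 1.43e-07, ratio of means 0.605). At ZT24 NRF had 185, 201, 153 and 143 TPM, while DRF had 308, 247, 258 and 288 TPM. The order was now reversed (log2 difference 0.69, SE 0.080, adjusted p = 4.54e-07). ZT0, the same hour of the day in other libraries, gave 213, 177, 201 and 194 TPM under NRF against 284, 295, 282 and 251 TPM under DRF, a difference of 0.50 (adjusted p = 3.73e-05).

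The ranges of Sqstm1 were apart at all 7 times, DRF being above at ZT0, ZT4, ZT20 and ZT24 and below at ZT8, ZT12 and ZT16. The test was passed at ZT0, ZT12, ZT16 (-0.35), ZT20 (0.35) and ZT24. The share of all genes called was 11.4% (ZT0), 0.446% (ZT4), 0.353% (ZT8), 7.67% (ZT12), 6.87% (ZT16), 14.8% (ZT20) and 8.86% (ZT24). Leaving out the doubted libraries raised these shares at ZT4 and ZT8 to 3.46% and 3.59%, and Sqstm1 (-0.31, adjusted p = 0.0393) was then called at ZT8 and Tfeb at ZT4 (0.30, adjusted p = 0.0374). Wipi1 was then also called at ZT24 (0.22, adjusted p = 0.0350, against 0.0649 with all libraries).

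Over all times, 7 of the 9 genes differed between regimens at 1 ZT or more (all but Map1lc3b and Bnip3l), against 32.8% of all genes. ZT20 was called for all 7, the 8th hour of the fast under DRF and of feeding under NRF. Gabarapl1, Bnip3, Ulk1, Sqstm1 and Wipi1 were higher under DRF there (5 genes, against 3.35% of all genes), while Tfeb and Map1lc3a were lower (2 genes, against 11.5%). By limma 0 members were called at ZT4 and 0 at ZT8 with all libraries, where 2 and 3 had an unadjusted p under 0.05.

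**Figure D3:**
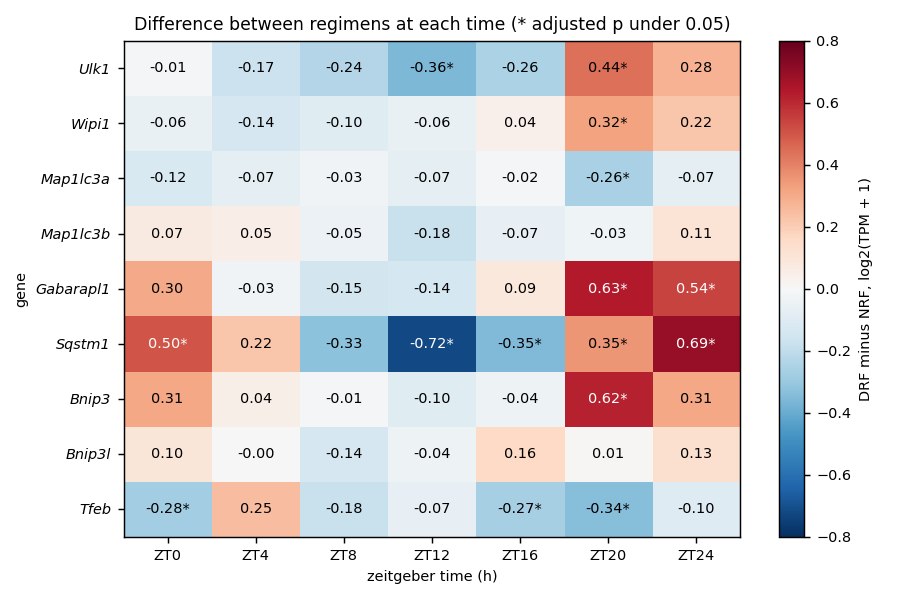
DRF minus NRF for the 9 genes (rows) at 7 zeitgeber times (h, columns), on the log2(TPM + 1) scale. Red is higher under DRF, blue lower, and a star marks an adjusted p under 0.05. The strongest cells are Sqstm1 at ZT12 (-0.72) and ZT24 (0.69), and ZT20 is the column with the most stars, 7.

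Bnip3, a receptor on mitochondria that is known as a hypoxia-induced gene, was called rhythmic under DRF and not under NRF. Under DRF it had a log2 amplitude of 0.28 (SE 0.0443, adjusted p = 0.000103) and a peak at ZT21.5 (SE 0.628). Under NRF the amplitude was 0.02 (SE 0.0555, adjusted p = 0.961). The rhythms differed at matched clock time (adjusted p = 0.00672) and at matched feeding time (adjusted p = 0.00592). For Bnip3 the first call was lost without replicate 4 (0.0600) or ZT20 (0.101), and the second without ZT12 (0.0559). At ZT20 Bnip3 had 106, 111, 114 and 105 TPM under NRF and 162, 167, 166 and 177 TPM under DRF. The groups were tight and far apart, with a ratio of means of 1.54 (log2 difference 0.62, SE 0.130, adjusted p = 0.00116). At the other times they overlapped.

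Bnip3l, its relative, was called in none of the rhythm tests (adjusted p from 0.530 to 0.594) and in none of the other comparisons with all libraries. Its lowest adjusted p was 0.302, for fasted against fed under DRF (0.15), and leaving out DRF ZT4 replicate 2 made that a call (0.27, adjusted p = 0.0301). Within groups its level rose with the summed erythroid markers (Pearson r = 0.869, Spearman rho = 0.869, permutation p = 1e-05 for each, the smallest the 100000 permutations can give; adjusted over 18 relations 0.00018; 56 libraries). The relation was r = 0.863 without the 2 libraries farthest from the median, 0.941 within NRF and 0.864 within DRF. BNIP3L is known for clearing mitochondria from maturing red cells. The 3 highest values were 84.6 TPM in DRF ZT4 replicate 2, 81.8 TPM in DRF ZT16 replicate 3 and 72.4 TPM in DRF ZT20 replicate 2. Those libraries also held the 3 highest erythroid sums, 62030, 42510 and 48833 TPM. With the erythroid sum as a covariate, the test at matched clock time gave an adjusted p of 0.0986, against 0.557 without it.

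**Figure D4:**
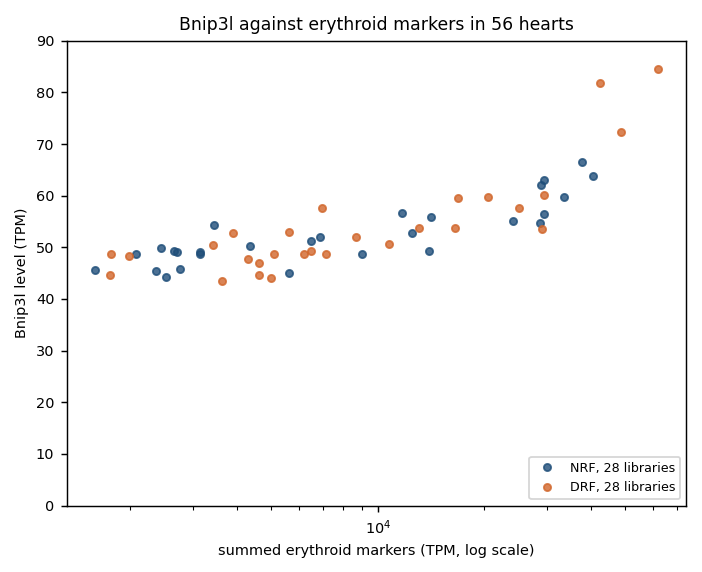
Bnip3l level (TPM) against the summed level of 4 erythroid markers (TPM, log scale) in 56 libraries, NRF in blue and DRF in orange. Bnip3l climbs with the sum and reaches 84.6 TPM in the library with the highest sum, 62030 TPM.

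Tfeb, the transcription factor, peaked at ZT17.4 (SE 0.947) under NRF and was not called rhythmic under DRF (adjusted p = 0.349, fitted peak ZT7.88). Both fitted peaks lie in the hours of feeding, at 17.4 and 19.9 h after food was removed, later than those of Sqstm1 (12.5 and 11.3 h) and Ulk1 (10.3 and 9.17 h). At ZT20 it had 16.2, 16.9, 16.7 and 14.2 TPM under NRF and 11.1, 12.9, 12.4 and 13.3 TPM under DRF. The groups did not overlap (difference -0.34, SE 0.082, adjusted p = 0.00420). Differences at ZT0 (-0.28, adjusted p = 0.0213) and ZT16 (-0.27, adjusted p = 0.0391) were also called. The ZT0 call was lost without replicate 1 or 4 of DRF, or 1 or 3 of NRF (adjusted p from 0.0587 to 0.153), and the ZT16 call without replicate 2, 3 or 4 of either group (0.0657 to 0.162). The NRF rhythm of Tfeb also rested on ZT4, since without that time the adjusted p was 0.243. Summed leukocyte markers (4 of 4 present) were also lower under DRF at ZT20, at 211 to 237 TPM against 282 to 336 TPM under NRF. At ZT0 and ZT16 the ranges of that sum overlapped, and its relation to Tfeb was not tested.

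The second question was how fasted hearts differed from fed hearts under each regimen. Within a regimen these hearts also differ in light and clock time, so fasting cannot be told apart from them there. Hearts 4 and 8 h into the fast were compared with hearts 4 and 8 h into feeding, which is ZT4 and ZT8 minus ZT16 and ZT20 under NRF and the opposite under DRF (16 libraries each). Under NRF 2 of the 9 genes changed, Wipi1 up by 0.39 (SE 0.055, adjusted p = 6.41e-07) and Tfeb with -0.26 (SE 0.058, adjusted p = 0.000809), against 22.5% of all genes (14.5% higher and 8.07% lower in fasted hearts). Under DRF 2 others were called, Gabarapl1 with 0.38 (SE 0.084, adjusted p = 0.00064) and Bnip3 with 0.29 (SE 0.092, adjusted p = 0.0156), against 26.6% of all genes (4.61% higher and 22% lower). The Bnip3 call was lost without replicate 1, 2 or 3 (adjusted p = 0.0507, 0.0891 and 0.0519). The difference between the regimens in this contrast was itself not called for Tfeb (limma, adjusted p = 0.0836) or Bnip3 (0.0573). The median over the 9 genes was -0.02 under NRF and 0.11 under DRF, and over all genes 0.02 and -0.07. Without the doubted libraries Ulk1 was called under both regimens, with 0.22 (adjusted p = 0.0240) under NRF and 0.20 (adjusted p = 0.0451) under DRF, and the shares of all genes were 27.5% and 26.3%.

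Averaged over the regimens, which weighs light and dark equally, 3 of the 9 genes had an effect of feeding state, against 9.85% of all genes (2.85% higher and 7% lower in fasted hearts). The average was above 0 for Gabarapl1 (0.22, SE 0.059, adjusted p = 0.0104) and Wipi1 (0.15, SE 0.039, adjusted p = 0.00933) and below 0 for Tfeb (-0.17, SE 0.041, adjusted p = 0.00516). For Wipi1 it joins values of opposite sign, 0.39 under NRF and -0.10 under DRF (adjusted p = 0.204). None of these was called without replicate 3 (adjusted p = 0.151, 0.145 and 0.158), nor was Gabarapl1 without replicate 4 (0.0704) or Wipi1 without replicate 2 (0.107). Without the doubted libraries Ulk1 joined them (0.21, adjusted p = 0.00457), where 14.9% of all genes were called. Light minus dark was called for Wipi1 (0.24, SE 0.039, adjusted p = 3.31e-06) and Gabarapl1 (-0.16, SE 0.059, adjusted p = 0.0357), 2 of the 9 genes, against 34.2% of all genes (26.4% higher and 7.74% lower in light). In this layout the light effect is also the difference between the regimens in the fasted minus fed contrast. For Gabarapl1 it was lost without the doubted libraries (-0.10, adjusted p = 0.143) and in 8 of the 56 fits with 1 library left out (adjusted p from 0.0504 to 0.0787). These left out DRF ZT4 replicate 1 or 4, DRF ZT8 replicate 4, DRF ZT20 replicate 2, NRF ZT4 replicate 4, NRF ZT8 replicate 1 or 3, or NRF ZT16 replicate 2.

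Sqstm1 was called in neither contrast (-0.06 under NRF, 0.11 under DRF), although its rhythms had the lowest p of the 9. Its peak and trough lie at ZT0, ZT12 and ZT24, when food is given or taken away, and these times are outside the contrast. With ZT12 added to ZT4 and ZT8 and ZT24 to ZT16 and ZT20, Sqstm1 was higher in fasted hearts under NRF (0.19, adjusted p = 0.00171) and under DRF (0.32, adjusted p = 1.64e-06). Ulk1 (0.21, adjusted p = 0.00130) and Bnip3 (0.16, adjusted p = 0.0284) then also had an effect of feeding state over both regimens.

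**Figure D5:**
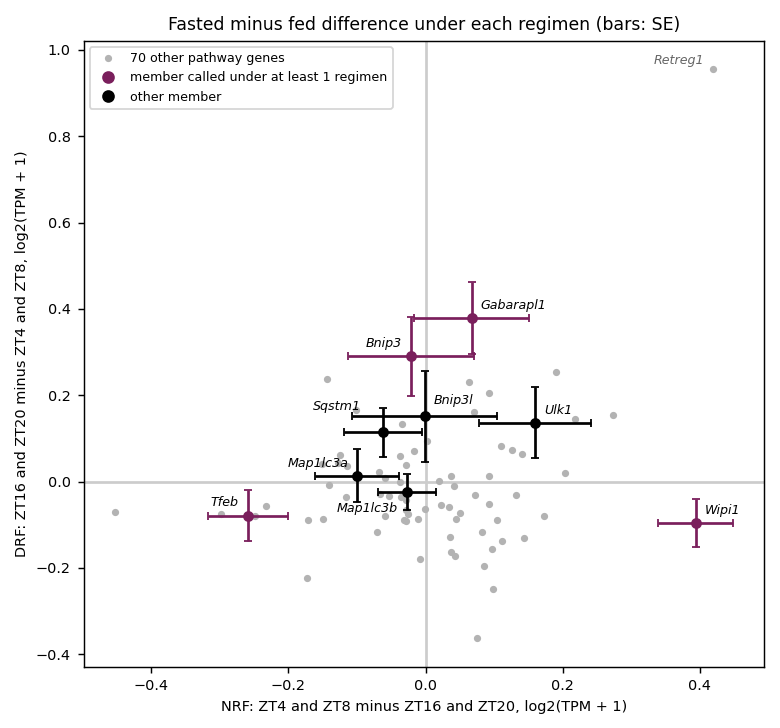
Fasted minus fed difference under NRF (horizontal) and DRF (vertical), on the log2(TPM + 1) scale, with SE bars for the 9 genes. Members called under at least 1 regimen are purple, other members black and 70 other pathway genes grey. Wipi1 and Tfeb lie off 0 along the NRF axis, Gabarapl1 and Bnip3 along the DRF axis, and Retreg1 is far from 0 on both.

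Hearts at the same hour of the fast were then compared directly, DRF in darkness against NRF in light, and 3 of the 9 genes differed at one of the hours, against 36.9% of all genes. At 4 h into the fast Wipi1 was lower under DRF, with 48.2, 49.4, 45.8 and 38.9 TPM (DRF ZT16) against 50.8, 61.4, 53.6 and 61.7 TPM (NRF ZT4). The groups did not overlap (difference -0.31, SE 0.078, adjusted p = 0.00296). It was the one member of the 9 called there, against 22.7% of all genes. At 8 h Bnip3 was higher under DRF, with 162, 167, 166 and 177 TPM (DRF ZT20) against 103, 139, 88.1 and 139 TPM (NRF ZT8), a difference of 0.54 (SE 0.130, adjusted p = 0.00231). Gabarapl1 was also called at 8 h (0.37, SE 0.118, adjusted p = 0.0192), against 24.1% of all genes. Its NRF ZT8 libraries were spread widely, at 87.5, 111, 110 and 165 TPM, and the call was lost without the doubted libraries (0.24, adjusted p = 0.111) without DRF ZT20 replicate 2 (0.32, adjusted p = 0.0779) or NRF ZT8 replicate 1 (0.24, adjusted p = 0.121), and without replicate 1, 2 or 3 of every group (adjusted p = 0.217, 0.124 and 0.0932). The median of all genes was -0.10 at 4 h and -0.12 at 8 h, and 0.01 and -0.01 after median-of-ratios rescaling. Under that rescaling Wipi1 (-0.19, adjusted p = 0.0193) and Bnip3 (0.67, adjusted p = 0.000356) were called at the same hours, while Gabarapl1 (0.33) and Tfeb (0.23) at 4 h and Sqstm1 (0.25) at 8 h were called as well.

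Over the whole day, 3 of the 9 genes differed in mean level, against 26% of all genes (1.67% higher and 24.3% lower under DRF). Gabarapl1 was higher under DRF (0.14, SE 0.046, adjusted p = 0.0261), while Tfeb (-0.14, SE 0.036, adjusted p = 0.00388) and Map1lc3a (-0.09, SE 0.033, adjusted p = 0.0490) were lower. The median over all genes was -0.05. After median-of-ratios rescaling it was 0.004, and 13.2% of all genes were called in mean level. Rescaling by the median of ratios ended the calls of Tfeb (-0.08, adjusted p = 0.0832) and Map1lc3a (-0.02, adjusted p = 0.686). Group means of the summed atrial markers were 981 to 3770 TPM under DRF and 424 to 2557 TPM under NRF, and with their sum as a covariate Gabarapl1 was not called (0.09, adjusted p = 0.125). That call was also lost without replicate 1, 2 or 3 (adjusted p = 0.0755, 0.127 and 0.182). The Map1lc3a call was lost in 36 of the 56 fits with 1 library left out (adjusted p from 0.0512 to 0.0896). Leaving out the doubted libraries made 4 calls, with Ulk1 added (-0.12, adjusted p = 0.0367), against 29.6% of all genes. For Bnip3 the difference was 0.13 (adjusted p = 0.0573), and it was a call in 14 of the 56 fits with 1 library left out (adjusted p from 0.0280 to 0.0486).

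Other genes of the pathway were taken from 9 lists by function, 70 genes in all, and all 70 were tested. Under NRF 25 were rhythmic and under DRF 31, 18 of them under both, where the shares of all genes were 37.2%, 32.3% and 17.6%. Of these 18, 11 had peaks 8 to 12 h apart, 6 were between the classes and 1 (Tmem41b) was phase locked, with a median shift of 9.41 h. Of all genes rhythmic under both, 17.7% had peaks 8 to 12 h apart, 30.1% were between the classes and 52.2% were phase locked, with a median of 3.81 h. With the doubted libraries left out the classes held 13, 3 and 3 genes of the lists. The class shares of all genes in that setting are not given here. The 11 came from 6 of the lists and included Atg14 and Pik3c3 of the phosphatidylinositol 3-kinase complex, Wipi2, Wdr45 and Atg2a of membrane supply, Atg4d of the conjugation machinery, the receptors Calcoco1 and Retreg1, Plekhm1 of fusion, and Mcoln1, a calcium channel of the lysosome. The rhythm differed at matched clock time for 34 of the 70, against 27.5% of all genes, and at matched feeding time for 19, against 41.3%.

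Retreg1, which encodes a receptor for the breakdown of endoplasmic reticulum, had the largest fasted minus fed difference over both regimens of the 10 called among the 70. At ZT20 it stood at 82.2, 58.3, 68.9 and 79.7 TPM under NRF and at 201, 164, 192 and 158 TPM under DRF, so every DRF library had more than the highest NRF library. Its fasted minus fed difference was 0.42 under NRF (SE 0.111, adjusted p = 0.00442) and 0.96 under DRF (SE 0.111, adjusted p = 1.55e-08). At ZT4 under DRF, when mice were fed, it had 53.3, 60.4 and 63.0 TPM in replicates 2 to 4 and 113 TPM in the doubted replicate 1. Its peaks lay at ZT7.19 and ZT20.1.

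Of the 7 genes of the phosphatidylinositol 3-kinase complex, 2 were called higher in fasted hearts under each regimen, where 14.5% (NRF) and 4.61% (DRF) of all genes were, and the median of the 7 was 0.11 under NRF and -0.03 under DRF. These 2 were named after their values were seen. Pik3c3, the catalytic subunit that makes the phosphoinositide WIPI proteins bind, rose by 0.27 under NRF (adjusted p = 0.000405) and 0.15 under DRF (adjusted p = 0.0418), and Atg14, its autophagy-specific partner, by 0.19 and 0.25 (adjusted p = 0.0246 and 0.00228). Calcoco1, another cargo receptor, had a clear rhythm in both regimens, with peaks at ZT11.7 and ZT1.82. Rubcn, which encodes an inhibitor of autophagosome maturation, was lower in fasted hearts under DRF (-0.36, SE 0.061, adjusted p = 1.88e-05), and under NRF its difference was 0.08 (adjusted p = 0.412). Stbd1, a glycogen receptor, was lower in fasted hearts under NRF (-0.45, SE 0.130, adjusted p = 0.00836), as was the repressor Zkscan3 (-0.30, adjusted p = 0.0265). Rb1cc1, the scaffold of the ULK1 complex, was lower in light than in dark (-0.19, adjusted p = 0.00217).

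Counted over the 70 genes, 7 were higher and 9 lower in fasted hearts under NRF, 7 higher and 11 lower under DRF, and 7 higher and 3 lower over both regimens. The shares of all genes called higher and lower were 14.5% and 8.07% under NRF, 4.61% and 22% under DRF, and 2.85% and 7% over both. The medians were 0.00, -0.04 and -0.02, against 0.02, -0.07 and -0.03 over all genes. The 7 that rose were Atg13 and Atg101 of the initiation complex, Pik3c3, Atg14, Optn, Retreg1 and Atp6v0d1, a subunit of the lysosomal proton pump, and the 3 that fell included Atg4d and Rubcn. Without the doubted libraries 11 rose and 8 fell, 19 of 70, where 14.9% of all genes were called. Mean level was lower under DRF for 17 of the 70 and higher for 2 (Retreg1 and Optn), where 24.3% of all genes were called lower and 1.67% higher, so the count of lower genes is at the background share. These counts and shares are from TPM without rescaling. After median-of-ratios rescaling 13.2% of all genes were called in mean level, in either direction. Among the lower genes of the 70 were Ctsb, a lysosomal protease, with -0.16 (SE 0.0312, adjusted p = 0.000399) and Tmem41b, a lipid scramblase of membrane supply, with -0.13 (SE 0.0218, adjusted p = 3.97e-05). Vmp1, its partner, was rhythmic under NRF (adjusted p = 4.38e-05) and not called under DRF (0.979), and Tecpr1, of autophagosome fusion, was rhythmic under DRF (6.22e-06) and not called under NRF (0.264).

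Genes most like each member were found by the correlation of the 14 group means over 9415 genes of at least 5 TPM on average. The means share libraries within each group, so the values are descriptions. Nearest to Sqstm1 were Ypel3 (r = 0.963), Map7 (0.949) and Bsdc1 (0.942), and nearest to Ulk1 were Ppp1r37 (0.947), Klhl33 (0.897) and Plekhm1 (0.895), itself one of the fusion genes above. Map1lc3a was closest to Tesc (0.887) and then to the glycolytic genes Pgk1 (0.863) and Pkm (0.842). Bnip3 was closest to Nceh1 (0.9202), Zfp839 (0.913) and Pank1 (0.909), the last a kinase of coenzyme A synthesis. For Gabarapl1 they were Sgms1 (0.901), Cir1 (0.8995) and Mapk1ip1 (0.899), for Wipi1 Nsmce2 (0.908), Naf1 (0.896) and Gpatch1 (0.886), and for Tfeb Adgra3 (0.939), Ints3 (0.907) and Ubtf (0.904). Map1lc3b was closest to Mmp28 (0.943), Tspyl2 (0.929) and Peg13 (0.923). Bnip3l had the weakest match, Gm7694 (0.775), followed by Penk (0.773) and Lmod2 (0.747).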

How the data were processed

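PolyA RNA-seq of 56 heart libraries was analysed, grouped by regimen, ZT and replicate from the labels. Per the labels, the submitters' processing notes name HISAT2 2.0.5, featureCounts 1.5.0-p3 and mm10; the annotation and the use of strand are not given in the sources used here. The authors deposited values named TPM that were another unit: the score for a gene was a library constant times log2(1 + depth-scaled reads) divided by gene length, so high levels were compressed. The number of reads behind each value was recovered from 2 constants fitted for each library, with GENCODE M21 exon lengths (99.9998% of 1192347 values within 0.1 of a whole read). For 884 genes the length was searched for, and 3 genes were left out; all 9 members kept the annotated length. Recovery was tested on simulated data.

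Reads were converted to linear TPM. Genes averaging 1 TPM or more were tested with limma 3.58.1 in R 4.3.3 on log2(TPM + 1), a scale that understates changes of low genes, with eBayes (trend = TRUE) and Benjamini-Hochberg adjustment, called at 0.05. Harmonic F tests stood in for MetaCycle and CircaCompare. Fits were tested on simulated data. Standard errors of peaks came from the delta method. The marker relations used deviations from group means with 100000 permutations (both sides tested) within groups. The members, lists and tests were chosen with earlier results of these data known. Genes named outside the members were, per comparison, the 3 called pathway genes with the largest difference (or smallest p for rhythms), members of short counted groups (named after their values were seen), and the 3 genes most like each member. Alternatives were rescaling, pseudocount, filter, replicate block, border times and leaving out libraries or times. Leaving out the doubted libraries and adding marker covariates were chosen after seeing the data. Replicate numbers were not taken to pair the libraries: deviations of same-numbered libraries correlated at 0.0169 on average, with a minimum of -0.395. A gene of the pathway lists is counted but not reported here by name.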

Additional observations from a re-analysis of the deposited data

Results flagged for a closer look

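Of 126 groups of 4 libraries (9 genes in 14 groups), 6 held a library far from the other 3, about as many as chance gives, since about 1 in 20 groups is expected. Bnip3l was highest in DRF ZT4 replicate 2, at 84.6 TPM against 43.5 to 44.7 TPM in the others, and in DRF ZT16 replicate 3, at 81.8 TPM against 48.8 to 53.8 TPM. These libraries had erythroid sums of 62030 and 42510 TPM, and the part of blood content in these values was not tested beyond the covariate fit. Ulk1 was highest in the doubted DRF ZT4 replicate 1, at 38.0 TPM against 26.4 to 27.3 TPM, and in NRF ZT12 replicate 3, at 43.7 TPM. Map1lc3b reached 84.3 TPM in NRF ZT8 replicate 4, where the others had up to 71.2 TPM. Bnip3 reached 139 TPM in NRF ZT16 replicate 1, above the 123 to 125 TPM of the other libraries.

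The fasted minus fed difference was not the same in both regimens for a pair of genes, by the test of the difference itself (limma, NRF minus DRF). For Gabarapl1 the value was -0.31 (SE 0.118, adjusted p = 0.0357), from 0.07 under NRF and 0.38 under DRF. This is the test of the light effect, and for Gabarapl1 it was lost without the doubted libraries (adjusted p = 0.143), in 8 of 56 fits with 1 library left out, without replicate 1, 2 or 3 (0.206, 0.0718 and 0.115) and with border times included (0.122). For Wipi1 it was 0.49 (SE 0.078, adjusted p = 3.31e-06), from 0.39 and -0.10.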

How the results depend on the processing

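Among comparisons with a signed difference, no value changed sign where it was called. Amplitudes and absolute peak differences of the rhythm tests have no sign, so this says nothing about them. Counts of members moved by more than 1.5 times under the following settings. Median-of-ratios rescaling gave 5 members with a different rhythm at matched feeding time (44.9% of all genes), 4 with a fasted minus fed difference under DRF (25.1%), 6 with a light effect (35.9%) and 5 with a difference at matched hours of fasting (34.2%). The deposited values as given called 4, 4 and 5 for the first 3 of these (41.4%, 22% and 33% of all genes). With the border times ZT12 and ZT24 included, 4 members had a fasted minus fed difference under NRF (27.5%) and 6 an effect of feeding state (19.5%). Without the doubted libraries 1 member had a light effect (35.9%). Over the fits that left out single libraries, whole replicate numbers or times, the range was 3 to 6 members rhythmic under NRF, 3 to 4 under DRF, 4 to 7 differing at matched clock time (4 without ZT20) and 1 to 3 at matched feeding time (1 without ZT12). It gave 2 to 3 with a fasted minus fed difference under NRF, 1 to 3 under DRF, 0 to 4 with an effect of feeding state, 1 to 4 with a light effect, 1 to 4 with a different mean, 4 to 8 differing at a ZT and 1 to 4 at matched hours. The 0 came from limma without replicate 3, where 4 members had an unadjusted p under 0.05. The cause was not tested. Calls gained without 1 library included Sqstm1 at ZT8 (19 of 56 fits), Bnip3 in mean level (14) and light effect (8), and Ulk1 fasted minus fed under NRF without NRF ZT8 replicate 1 (0.22, adjusted p = 0.0376).

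Without ZT20 the clock-time difference was lost for Tfeb, Bnip3 and Wipi1 (adjusted p = 0.0952, 0.101 and 0.175). Map1lc3b lost it without ZT12 (0.180). Without replicate 3 further calls lost were the clock-time differences of Map1lc3b, Wipi1 and Tfeb (adjusted p = 0.0606, 0.111 and 0.179), the ZT20 differences of Ulk1 and Wipi1 (0.0545 and 0.0846), Sqstm1 at ZT16 (0.136), Gabarapl1 at ZT24 (0.0870) and Bnip3 at 8 h of fasting (0.0541). Tfeb lost its NRF rhythm without replicate 2 or 3 (0.112 and 0.136), its clock-time difference without replicate 2 (0.0648) and its ZT20 difference without replicate 1 (0.0644). Without replicate 4, Bnip3 lost its clock-time difference (0.0600) and Wipi1 its difference at 4 h of fasting (0.133). With the replicate number as a block, the 11 counts were the same as without it (7 members at matched clock time, 2 at matched feeding time). The numbers were not taken to pair the libraries, since 92 of 364 pairs of same-numbered libraries, and not all, correlated over 0.1, with a mean of 0.0169. Of 56 libraries 21 correlated best, on average, with those of their own number, where an equal share is 14. With 4 libraries per group, small differences may have been missed.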
